A study of Mus musculus with 6 samples.

Results

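The clustered histone genes code for the canonical histones H1, H2A, H2B, H3 and H4, and they lie side by side in the genome in the loci named Hist1, Hist2, Hist3 and Hist4. Here their chromatin accessibility was read from ATAC-seq of nuclei from hindlimb muscle. The methods prepared nuclei for ATAC-seq from the muscles of individual hind limbs. The genes were taken as the protein-coding genes of GENCODE vM1 (mouse build mm9) whose name starts with Hist1h, Hist2h, Hist3h or Hist4h, and an interval of the deposited table belonged to them when it overlapped the body of such a gene or lay within 1 kb of one of its transcription start sites (TSSs). This gave 40 intervals of the 39768 in the table, for 67 genes, of which 35 had at least 1 interval and 32 had none. The methods describe a larger union of intervals than this table holds, so a gene without an interval is one without an interval in this table.

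The mice were aged 7 weeks and gave 3 CTL libraries and 3 labelled H2A.Z dKO. They were of strain C57BL/6 in the labels and backcrossed to C57BL/6N in the methods, and 50000 nuclei were used for each library. All 6 carried floxed alleles of both genes of the histone variant H2A.Z, H2A.Z-1 flox/flox and H2A.Z-2 flox/flox. The CTL mice had no Cre, and the others carried HSA CRE, a recombinase driven by the human skeletal actin promoter, which acts in muscle fibres and leaves the alleles of other cell types in the muscle intact. The labels do not say whether libraries came from separate animals, so the p-values measure the spread between these libraries.

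Replication-dependent histone genes are transcribed mostly in S phase, when new DNA has to be packed, and their messenger RNA ends in a stem-loop in place of a poly(A) tail. Many H2A and H2B genes are arranged in divergent pairs that share the short stretch between their starts. Fibres of adult muscle have left the cell cycle, whereas replacement histones such as H2A.Z are also made outside S phase, from genes elsewhere in the genome.

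Totals in the intervals ran from 3520008 to 6117245 counted fragment ends. The targeted genes were looked at first. At H2afz, which codes for H2A.Z-1, the loxP sites flank exons 2 to 4, and 2 intervals lay between them, on chromosome 3 between 137528097 and 137529013. They held 79, 69 and 33 ends in CTL replicates 1, 2 and 3 and 57, 52 and 64 in the Cre-positive ones. In CPM, counts scaled to a common library size with TMM factors, this was 12.4 ± 2.83 (SD, n = 3) against 11.3 ± 1.28 (SD, n = 3), with p = 0.6 in a two-sided exact permutation test whose smallest possible p is 0.1. H2afv, which codes for H2A.Z-2, had no interval in its floxed exons 4 and 5. The fragment ends therefore did not tell the groups apart by the deleted segment, and the Cre-positive group is called dKO-labelled, after its labels alone.

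The stretches that carry the results are printed from mm9, in lower case, with 3 motifs in capitals on either strand. The motif TATAAA is the core of the box that places the start of transcription. The motif CCAAT, which reads ATTGG from the opposite strand, is the box bound by the factor NF-Y. The octamer ATTTGCAT is bound by the factor Oct-1. The first is chr13:23838303-23838602, the 300 bases before the start of Hist1h2bb within the interval of Hist1h2bb and Hist1h3c, shown because that interval had the smallest p of the 40. The second is chr13:23663090-23663250, the part of an interval between the divergent genes Hist1h2ae and Hist1h2bg, shown as an example of a shared H2A and H2B promoter. Both are given on the plus strand.
Peak_28731: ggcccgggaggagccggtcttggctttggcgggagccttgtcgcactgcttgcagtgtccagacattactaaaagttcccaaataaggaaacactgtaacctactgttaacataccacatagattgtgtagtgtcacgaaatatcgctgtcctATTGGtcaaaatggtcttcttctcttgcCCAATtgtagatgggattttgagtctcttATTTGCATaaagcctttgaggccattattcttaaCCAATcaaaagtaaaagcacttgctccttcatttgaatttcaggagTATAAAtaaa
Peak_28717: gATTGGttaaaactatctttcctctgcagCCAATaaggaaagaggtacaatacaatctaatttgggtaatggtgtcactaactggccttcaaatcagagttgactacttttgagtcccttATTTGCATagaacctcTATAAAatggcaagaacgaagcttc

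In both, the octamer lies between a CCAAT box and the TATA box that precedes the H2B gene. Over the 300 bases from 250 before to 50 after the start, 56.7% of the 67 genes held TATAAA on either strand, against 13.4% of all protein-coding genes. CCAAT was in 85.1% against 37.9%, and ATTTGCAT in 22.4% against 1.73%. The TATA motif was in 4 of 6 H1, 12 of 19 H2A, 10 of 18 H2B, 5 of 11 H3 and 7 of 13 H4 genes. CCAAT was in all 6 H1, 19 H2A and 18 H2B genes and in 10 of 11 H3 genes, but in 4 of 13 H4 genes. The octamer was in 7 H2A genes, 8 H2B genes and no gene of the classes H1, H3 and H4. A motif between the starts of a divergent pair can lie in the windows of both genes and count for each. These counts and shares are therefore not of independent genes. A match is a description of the letters and not of a bound factor. These motifs were in the promoters of genes without an interval too, where 18 of 32 held TATAAA and 26 of 32 held CCAAT, while the octamer was in 3 of 32 against 12 of 35 genes with an interval. The octamer occurred only in the classes H2A and H2B, of which 10 of 19 and 13 of 18 genes had an interval. Class was therefore not separated from presence of an interval in this contrast.

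Of the 67 genes, 35 (52.2%) had an interval, beside 12021 of the other 22313 protein-coding genes (53.9%). Histone genes are short, with a median gene body of 534 bp for those with an interval and 516 bp for those without. Among other protein-coding genes of at most 2000 bp, 350 of 3248 (10.8%) had an interval. By class, 13 of 18 H2B genes, 10 of 19 H2A genes, 4 of 6 H1 genes, 4 of 11 H3 genes and 4 of 13 H4 genes had one. By locus it was 30 of 55 genes in Hist1, 4 of 9 in Hist2 and 1 of 2 in Hist3, and Hist4h4, the single gene of Hist4, had none.

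The H2A genes without an interval in the table analysed were Hist1h2aa, Hist1h2ab, Hist1h2af, Hist1h2ak, Hist1h2al, Hist1h2ao, Hist1h2ap, Hist2h2aa1 and Hist2h2aa2. The H2B genes were Hist1h2ba, Hist1h2bn, Hist1h2bq, Hist1h2br and Hist3h2ba. The H3 genes were Hist1h3b, Hist1h3d, Hist1h3e, Hist1h3h, Hist1h3i, Hist2h3b and Hist2h3c1. The H4 genes were Hist1h4a, Hist1h4c, Hist1h4f, Hist1h4i, Hist1h4k, Hist1h4m, Hist1h4n, Hist2h4 and Hist4h4, and the H1 genes were Hist1h1b and Hist1h1t. Hist1h1t, Hist1h2ba and Hist1h2aa code for histones known from the testis, and the divergent pair of Hist1h2ba and Hist1h2aa had no interval between its starts.

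The histone genes resemble each other, so short reads can match several of them. The share of 32-base words found once in the genome was computed over the start of each gene with 250 bp on either side. It ran from 53.0% to 100% in the 35 genes with an interval, with a median of 74.3%, and from 0% to 100% in the 32 without, with a median of 62.8%. At 9 genes it was under 10%, and none of these 9 had an interval. They were Hist1h2ao, Hist1h2ap, Hist1h2bq and Hist1h2br at 0%, Hist1h4n at 4.89%, and Hist1h4m, Hist2h2aa1, Hist2h2aa2 and Hist2h3c1 at 6.81%. The other 23 genes without an interval lay at 10% or above, among them Hist1h1b, Hist1h1t and Hist1h2aa at 100%.

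**Figure D1:**
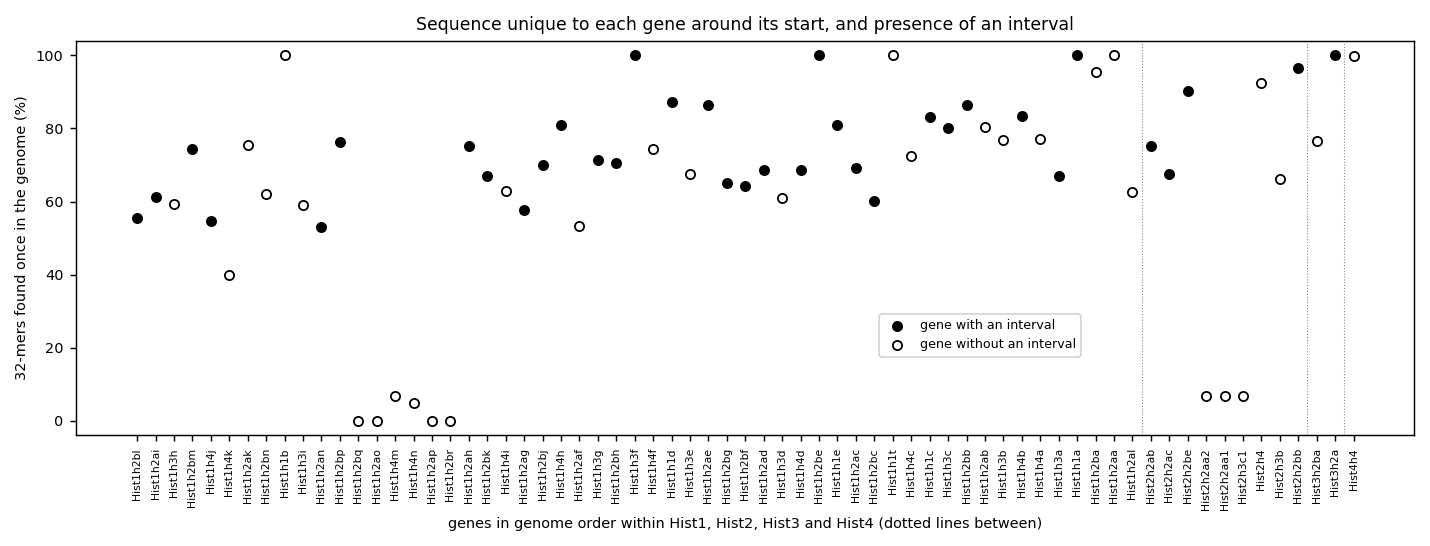
Each point is 1 of the 67 genes in genome order within its locus, and the vertical axis gives the percentage of 32-base words around its start that occur once in mm9. The 9 genes under 10% are all open points, which mark genes without an interval, and open and filled points mix above 50%.

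The lack of unique sequence is plain at a pair of divergent genes that is present in inverted copies. The stretch between Hist1h2bq and Hist1h2ao, chr13:21902069-21902235 on the plus strand, and the one between Hist1h2ap and Hist1h2br, chr13:21925445-21925611 on the minus strand, agreed at 167 of 167 bases. They are shown because no read that lies wholly within them can be placed by its own bases at one copy rather than the other.
Hist1h2bq-Hist1h2ao: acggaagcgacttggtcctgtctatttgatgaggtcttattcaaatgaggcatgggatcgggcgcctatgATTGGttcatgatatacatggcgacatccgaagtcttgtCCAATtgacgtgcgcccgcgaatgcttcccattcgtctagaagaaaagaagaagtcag
Hist1h2ap-Hist1h2br: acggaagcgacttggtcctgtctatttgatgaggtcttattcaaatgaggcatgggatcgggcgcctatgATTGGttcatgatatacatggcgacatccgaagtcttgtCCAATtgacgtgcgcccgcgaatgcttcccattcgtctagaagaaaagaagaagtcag

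There were 13 divergent pairs whose starts lay within 1000 bp of each other, 168 to 693 bp apart. An interval covered the stretch between the starts in 9 of them. The 4 without were these inverted copies, Hist1h2ak with Hist1h2bn, and Hist1h2ba with Hist1h2aa. Among the 9, the mean RPKM of the highest interval ran from 73.3 between Hist1h2bl and Hist1h2ai to 144 between Hist2h2ac and Hist2h2be.

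The 40 intervals spanned 19 to 489 bp (median 182.5), and 33 had their midpoint upstream of the nearest start of a histone gene, 28 within 300 bp of it. The others had their midpoint in a coding exon (3), a UTR (3) or an intron (1). Of the 40, 24 belonged to 1 histone gene and 16 to more than 1. The interval in the intron, chr13:23677689-23678019, lay 35109 bp into the long annotated transcript of Hist1h2be and nearest to the start of Hist1h4d, and the pair of intervals in the UTR of Hist2h2bb lay 8465 and 8859 bp from its start. At 6 intervals the nearest start was that of a gene outside the 67, such as the H2B pseudogene Hist3h2bb-ps beside Hist3h2a. The intervals were poorer in G and C than others, with a median of 47.8% against 60.0% over all intervals and 65.5% over the 20046 within 1 kb of a protein-coding TSS. The submitters' table listed 26 of the 40 as shared by both groups, 8 for the dKO group and 6 for the CTL group, so that 65.0% were shared. Over all intervals 38.7% were shared, 43.4% were listed for the dKO group and 17.9% for CTL, and over those near a protein-coding TSS these shares were 52.9%, 31.2% and 15.9%.

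Levels were given as RPKM, fragment ends per kb of interval scaled by the total of ends in all intervals of the library. The median over the 40 was 116, beside 115 over all intervals and 132 over those near a protein-coding TSS, and they ran from 72.4 to 231. Only 1 of the 40 was in the top 10% of the table, and 0 were in the bottom 10%. Because the submitters extended the ends before counting, a narrow interval also collects ends from beyond its edges. Levels are therefore hard to compare across widths, and 8 of the 40 were under 50 bp wide, 6 of them at H4 genes.

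The highest value was at Hist2h2ab, an H2A gene of the Hist2 locus, in a 24 bp interval at chr3:96023587-96023610. Its RPKM was 211, 360 and 260 in CTL replicates 1, 2 and 3 and 177, 101 and 274 in the dKO-labelled libraries, from 11 to 40 ends each. The groups overlapped, and the log2 fold change (dKO over CTL throughout) was -0.56 with a 95% interval of -1.19 to 0.07. It was -0.93 without dKO-labelled replicate 3 and -0.29 without dKO-labelled replicate 2. The wider interval that contains it, chr3:96023587-96023803, gave 154, 159 and 166 against 139, 124 and 160, with a log2 fold change of -0.18 ± 0.15 (SE).

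For H2A, the next level was at Hist3h2a on chromosome 11, chr11:58767929-58768164, with 184, 179 and 164 RPKM in CTL and 150, 162 and 145 in the dKO-labelled libraries. All 3 CTL values lay above all 3 others, and the log2 fold change was -0.21 (95% interval -0.50 to 0.08). For H2B, the interval between Hist2h2ac and Hist2h2be had 130, 154 and 137 against 137, 154 and 151. These groups overlapped. The interval between Hist1h2ac and Hist1h2bc, the most deeply counted of the 40 with 210 to 415 ends, had 153, 151 and 135 against 123, 147 and 145, and its log2 fold change was -0.09 (95% interval -0.34 to 0.15). Of its 32-base words 86.9% were unique in the genome, and it had 8 near-identical matches elsewhere.

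Linker histone H1 binds the DNA between nucleosomes. Its highest interval lay 49 bp upstream of Hist1h1e by its midpoint, chr13:23714311-23714529, with 154, 136 and 157 RPKM in CTL and 170, 175 and 142 in the dKO-labelled libraries, and a log2 fold change of 0.13 (95% interval -0.19 to 0.44). A neighbouring interval, near both Hist1h1e and Hist1h2be, had 113, 129 and 141 against 131, 116 and 118. Both pairs of groups overlapped.

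For H3, the interval of Hist1h2bh and Hist1h3f had 148, 118 and 116 against 108, 116 and 159 RPKM, and that of Hist1h3g had 125, 116 and 175 against 93.6, 118 and 118. The spread within a group exceeded the difference at the first, whose log2 fold change was -0.01, and the second had -0.32 (95% interval -0.74 to 0.09), or -0.14 without CTL replicate 3. For H4, the pair of intervals upstream of Hist1h4h had the highest levels of the Hist1 locus. The 23 bp one gave 206, 169 and 210 against 133, 182 and 242, from 17 to 29 ends each, and the 82 bp one gave 163, 124 and 222 against 166, 163 and 209. Of the 32-base words of the 82 bp one 15.7% were unique in the genome, and it had 8 near-identical matches elsewhere, so its ends may belong to other copies, which was not tested. Their groups overlapped, and the nearest start to both was that of the lincRNA Gm11335.

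**Figure D2:**
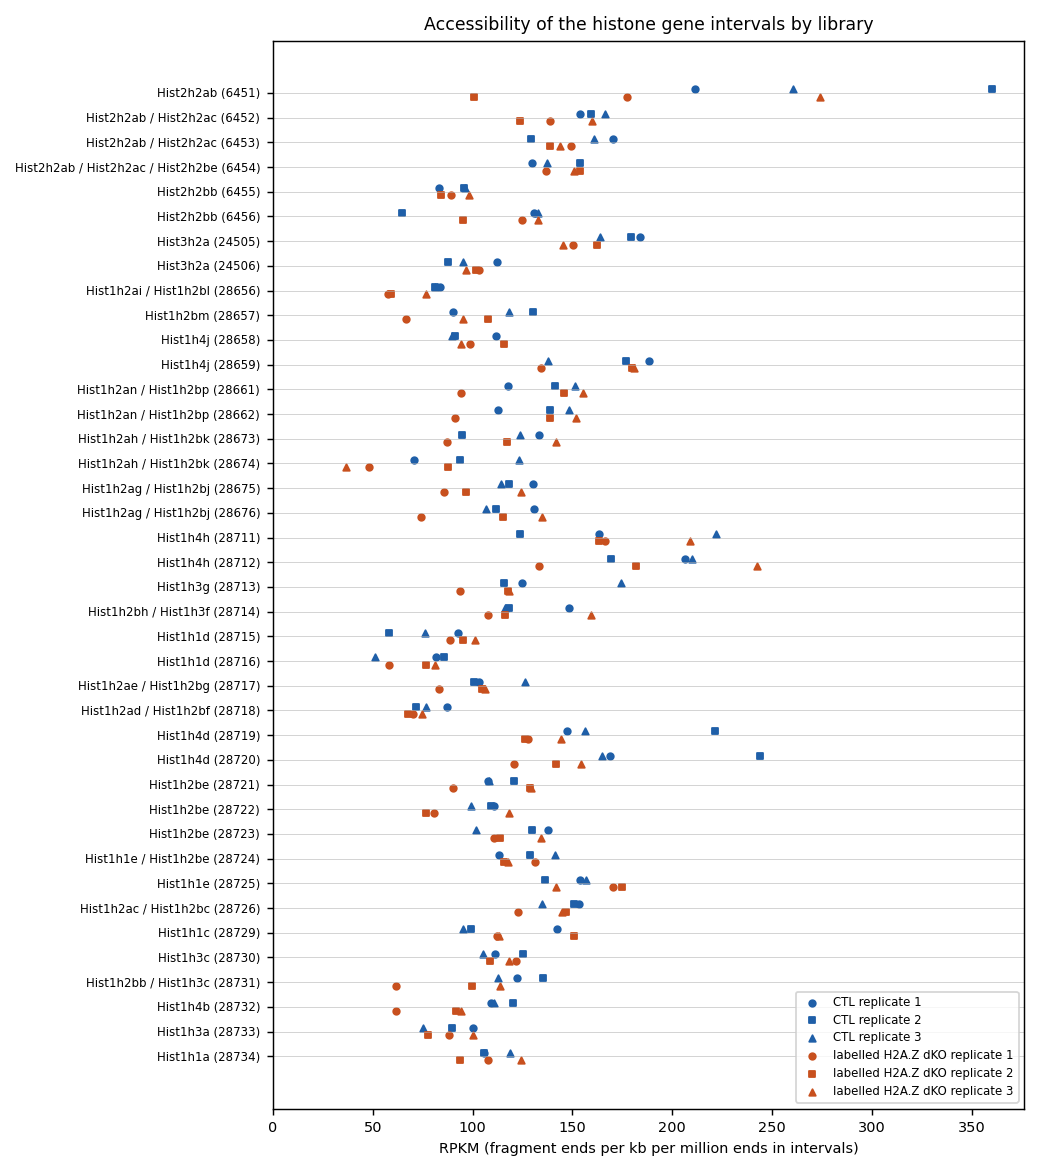
Each row is 1 of the 40 intervals, named by its histone genes and its number in the table, and the horizontal axis gives RPKM in each of the 6 libraries. Levels lie mostly between 70 and 200, and blue CTL and orange points mix in most rows.

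Whether accessibility differed between the dKO-labelled and the CTL libraries was tested with edgeR's quasi-likelihood test on all 39768 intervals. After Benjamini-Hochberg adjustment 0 intervals (0%) passed 0.05 anywhere in the table, and 1970 (4.95%) had an unadjusted p under 0.05. DESeq2 also gave 0 adjusted calls, with 756 unadjusted. Of the 40 histone gene intervals 0 passed after adjustment, with the lowest adjusted p at 0.972, and 2 had an unadjusted p under 0.05, a share close to that of the table.

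Both of these lay on the lower side, where 2.31% of all intervals had such a p. At the interval of Hist1h2bb and Hist1h3c whose sequence opens the results, chr13:23838291-23838603, the counts were 234, 196 and 124 in CTL and 113, 142 and 179 in the dKO-labelled libraries. In RPKM this was 122, 135 and 113 against 61.5, 99.7 and 114, so that dKO-labelled replicate 1 lay far below the rest and replicate 3 reached the lowest CTL value. The log2 fold change was -0.44 (95% interval -0.82 to -0.07) with unadjusted p = 0.0230 and adjusted p = 0.972 (edgeR). It was -0.23 without that replicate 1. The nearest start to this interval was that of the pseudogene Gm11336.

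The other was a 60 bp interval in the coding exon of Hist1h2bk, chr13:22127868-22127927, with 26, 26 and 26 ends in CTL and 17, 24 and 11 in the dKO-labelled libraries. Its log2 fold change was -0.71 (95% interval -1.36 to -0.06), with unadjusted p = 0.0335 and adjusted p = 0.972 (edgeR). None of its 32-base words was unique in the genome, and it had 13 near-identical matches elsewhere, so its ends may belong to other copies, which was not tested. The next smallest p on the lower side was at the interval between Hist1h2ai and Hist1h2bl, with 83.7, 81.4 and 81.2 RPKM against 57.4, 59.3 and 76.7 and a log2 fold change of -0.35 (95% interval -0.74 to 0.03). On the higher side the smallest p-values belonged to 3 intervals of H1 genes, at Hist1h1d (log2 fold change 0.30), Hist1h1e (0.13) and Hist1h1c (0.13), with unadjusted p from 0.238 to 0.502 (edgeR).

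**Figure D3:**
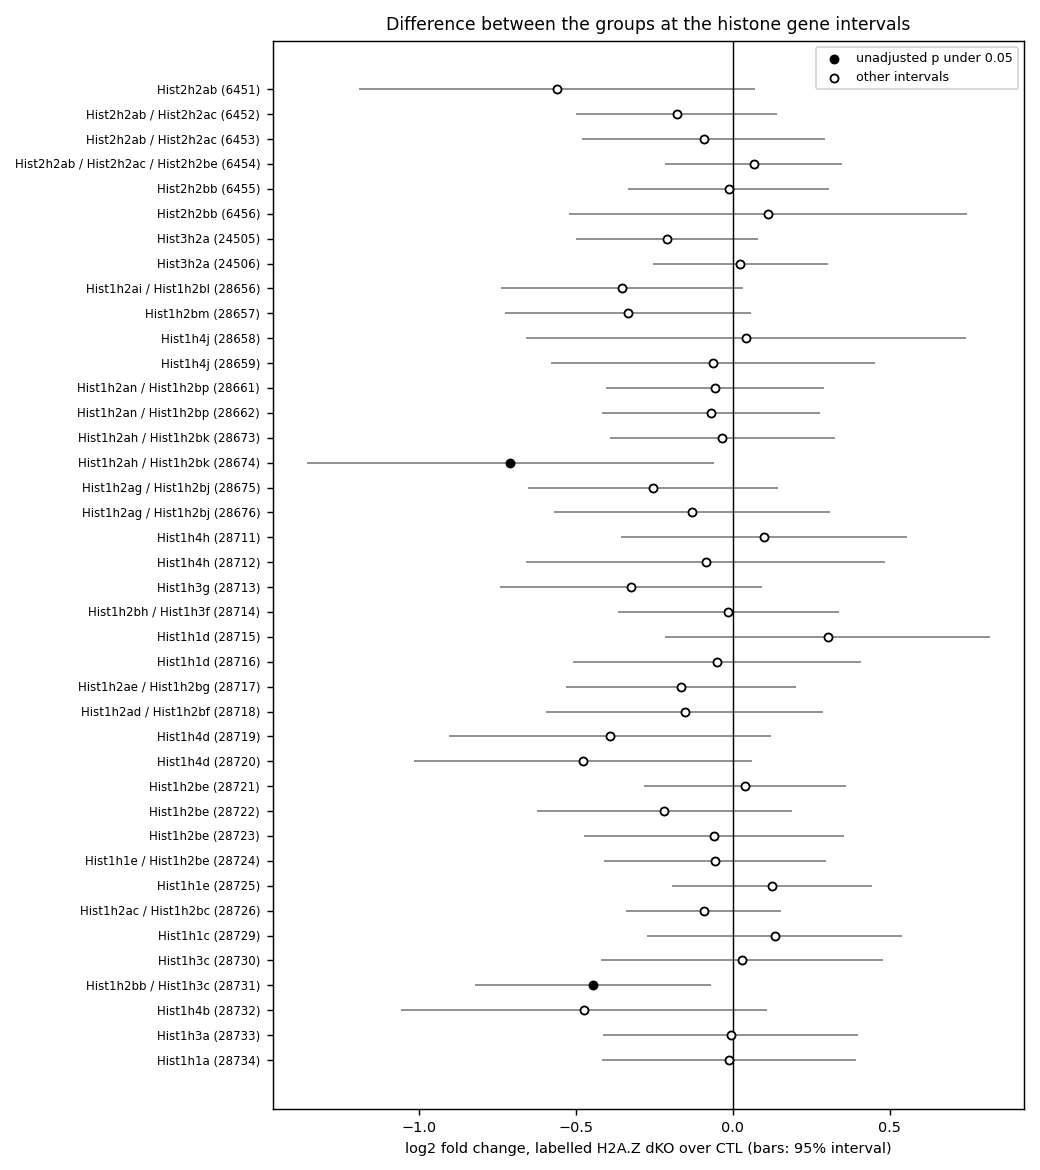
Each row is 1 of the 40 intervals, and the horizontal axis gives the log2 fold change of the dKO-labelled libraries over CTL with its 95% interval. The 2 filled points have an unadjusted p under 0.05, at Hist1h2bb with Hist1h3c and at Hist1h2ah with Hist1h2bk, and 30 of the 40 points lie left of 0.

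The log2 fold change was negative at 30 of the 40 intervals and positive at 10, with a median of -0.07, where 47.5% of all intervals were negative and the median was 0.01. Intervals that share a promoter or overlap are not independent, and 6 of the 40 overlapped another. Groups did not overlap on the scale of TMM-scaled counts at 6 of the 40 (15.0%), all lower in the dKO-labelled libraries, at Hist3h2a, Hist1h2ai with Hist1h2bl, Hist1h2bb with Hist1h3c, Hist1h4b and both intervals of Hist1h4d. Over all intervals 5.63% did so on the lower side and 5.22% on the higher side, where 0 of the 40 lay. The count depended on the scaling, with 5 of the 40 by library totals and 7 by median-of-ratios factors. At Hist1h2bb with Hist1h3c the groups overlapped in RPKM. The intervals of Hist1h4b and Hist1h4d were 31 to 40 bp wide, with 13 to 41 ends in each library.

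The direction was carried unevenly by the libraries. Relative to the mean of all 6, the median histone gene interval stood at 0.13, 0.09 and 0.04 (log2) in CTL replicates 1, 2 and 3 and at -0.18, -0.07 and 0.08 in the dKO-labelled libraries. Replicate 1 of the latter was the lowest of the 6 libraries at 15 of the 40 intervals, and over all intervals close to a protein-coding start (1 kb) its median was 0.09. Replicate 3 was the highest of the 6 at 11. Without that replicate 1, 24 of 40 intervals were negative, the median was -0.03 and 0 had an unadjusted p under 0.05 (edgeR), while 7.95% of all intervals did. Non-overlapping groups were then found at 6 intervals on the lower and 2 on the higher side, beside 12.5% and 12.4% of all intervals. Without dKO-labelled replicate 3, 32 of 40 were negative, the median was -0.18 and 3 had an unadjusted p under 0.05, beside 5.60% of all intervals. Without CTL replicate 2, 32 of 40 were negative, the median was -0.11 and 0 had such a p, beside 4.21%. Leaving out CTL replicate 1 gave 23 of 40 negative, fewer than without dKO-labelled replicate 1, with a median of -0.05 and 3 at such a p, beside 4.92%. Leaving out CTL replicate 3 gave 26 of 40 negative, a median of -0.08 and 1 at such a p, beside 3.18%, and leaving out dKO-labelled replicate 2 gave 29, -0.09 and 3, beside 5.38%.

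Counted once where intervals overlap, the histone gene intervals summed to 835, 815 and 818 CPM in CTL and to 711, 778 and 828 in the dKO-labelled libraries. The means were 823 ± 10.3 and 772 ± 58.4 (SD, n = 3 each), a log2 difference of -0.09, and the groups overlapped. Over the 33 intervals without a near-identical copy the sums were 631, 630 and 623 against 549, 583 and 622, a log2 difference of -0.10, and these groups did not overlap, with dKO-labelled replicate 3 just under the lowest CTL value. Scaled by library totals alone they overlapped, with replicate 3 at 632 above the CTL values of 629, 629 and 625. Without dKO-labelled replicate 1 the difference over these 33 was -0.06. The difference over all of them was -0.04 without dKO-labelled replicate 1 and -0.14 without dKO-labelled replicate 3. By class, the log2 difference of the sums was 0.06 for H1, -0.10 for H2A, -0.12 for H2B, -0.18 for H3 and -0.14 for H4. Without dKO-labelled replicate 1 it was -0.05 for H2A, -0.03 for H2B, -0.09 for H3 and -0.07 for H4, and without dKO-labelled replicate 3 it was -0.20 for H2B, -0.31 for H3 and -0.23 for H4. For H1 it was 0.10 without CTL replicate 1 and 0.04 without CTL replicate 2. In H2A and H2B the median interval was at -0.14 and -0.08, with 14 of 16 and 17 of 20 intervals negative, and in H1 3 of 6 were negative.

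**Figure D4:**
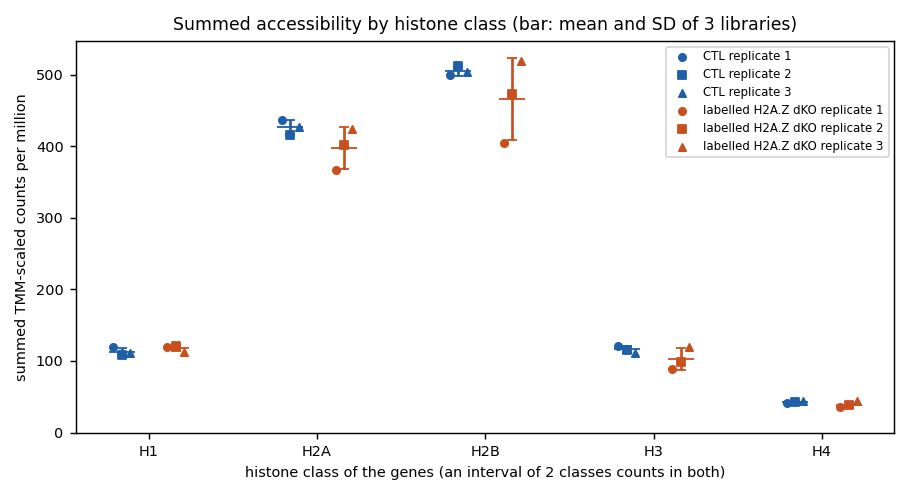
Points give the summed TMM-scaled CPM of the intervals of each histone class in each library, and bars the mean and SD of 3 libraries. For H2A, H2B, H3 and H4 dKO-labelled replicate 1 is the lowest of the 6, and the groups overlap in every one of the 5 classes.

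The intervals bound the size of any change. At 36 of the 40 the 95% interval lay within a 2-fold change in either direction, and at 24 within a 1.5-fold change, where the table had 91.4% and 49.6%. The median half-width was 0.41 on the log2 scale.

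Accessibility in whole tissue mixes cell types, and a difference in their share cannot be told apart from a difference within one. Of 15 muscle fibre marker genes 13 had an interval, and these summed to 876 to 1060 CPM in CTL and 921 to 1122 in the dKO-labelled libraries. The log2 fold change was positive at 27 of their 40 intervals and negative at 13, with a median of 0.09. An unadjusted p under 0.05 (edgeR) was found at 1 of them, on the higher side, beside 4.95% of all intervals in either direction. Of 8 endothelial marker genes 7 had an interval. A negative log2 fold change was found at 23 of their 27 intervals, with a median of -0.31 and 4 at an unadjusted p under 0.05 (edgeR). Over all intervals 47.5% were negative and 4.95% had such a p. The endothelial sum was 310 to 346 CPM in CTL and 269 to 296 in the dKO-labelled libraries, without overlap. For macrophages 1 of 7 genes had an interval, Csf1r, with 3.28 to 7.36 and 3.03 to 3.51 CPM, a log2 fold change of -0.65 and unadjusted p = 0.0436 (edgeR). Fibroblast markers had intervals at 5 of 7 genes, with a median log2 fold change of 0.27 and sums of 140 to 174 and 167 to 171. Satellite cell markers had them at 2 of 5, with sums of 32.2 to 50.9 and 48.3 to 56.3. All 3 of their intervals had a positive log2 fold change, with a median of 0.29. The part of these cell types in the histone gene values was not tested.

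Transcription and 3' processing of the histone genes depend on dedicated factors, and all 23 annotated genes of a list of these had an interval. Of their 49 intervals 0 passed after adjustment, 1 (at E2f3, an E2F transcription factor) had an unadjusted p under 0.05 (4.95% of all intervals did), and the median log2 fold change was -0.02. NPAT, the cyclin E-CDK2 substrate that activates histone gene transcription, shares its interval with the start of Atm, and had 307, 305 and 302 RPKM in CTL against 261, 281 and 269. The groups did not overlap, and the log2 fold change of Npat was -0.17 ± 0.10 (SE) with unadjusted p = 0.0823 (edgeR). Casp8ap2, which codes for the histone locus body protein FLASH, had 220, 245 and 207 against 182, 220 and 220.

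HINFP activates H4 genes, and the highest interval of Hinfp had 218, 226 and 231 RPKM against 182, 224 and 207. SLBP binds the stem-loop of histone messages, and Slbp had 295, 334 and 298 against 294, 313 and 311. Both pairs of groups overlapped. Lsm10 and Lsm11 code for subunits of the U7 particle that cuts the 3' end. Lsm10 had 193, 178 and 181 against 163, 170 and 187, and Lsm11 had 148, 144 and 168 against 140, 127 and 134. Their log2 fold changes were -0.09 ± 0.12 and -0.19 ± 0.14 (SE). In RPKM the groups overlapped at Lsm10, whereas at Lsm11 all CTL values lay above the others. On TMM-scaled counts 5.63% of all intervals had groups that did not overlap on the lower side. The median RPKM of the intervals of this list was 128.

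Genes used by dividing cells had intervals too, at 23 of 26 genes, with Pcna, Mcm4 and Aurkb having none. Of 38 intervals 2 had an unadjusted p under 0.05, at Ccnb2 and Mcm2, both higher, beside 4.95% of all intervals, 0 passed after adjustment, and the median log2 fold change was 0.03. The Ccnb2 interval, at a cyclin B gene, was 1.04 ± 0.37 (SE) on the log2 scale with unadjusted p = 0.0110 (edgeR), from 8, 7 and 6 ends in CTL and 14, 22 and 11 in the dKO-labelled libraries, and the other interval of Ccnb2, nearer its start, was at -0.16 ± 0.20. Mcm2 codes for a subunit of the replicative helicase, and its interval with that p had 146, 139 and 115 RPKM in CTL against 150, 167 and 205, without overlap. The highest level of the list was at a narrower interval of Mcm2 (unadjusted p = 0.422, edgeR), with 228, 242 and 207 RPKM against 273, 213 and 284. The lowest top interval was at Tyms, the thymidylate synthase gene, with 67.6, 96.8 and 108 against 76.3, 45.5 and 82.4 from 6 to 13 ends each. At these highest and lowest intervals the groups overlapped.

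Genes of replacement histones, listed after the data were seen, had intervals at 6 of 8 genes with a median RPKM of 170, and the median log2 fold change of their 17 intervals was -0.06, with 0 at an unadjusted p under 0.05 beside 4.95% of all intervals. Of the targeted genes, the promoter interval of H2afz had 202, 200 and 195 RPKM in CTL and 253, 215 and 178 in the dKO-labelled libraries. The wider interval of H2afv had 253, 264 and 211 against 262, 234 and 232. In both, the groups overlapped.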

How the data were processed

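ATAC-seq inserts adapters into open DNA with the Tn5 transposase. Per the methods and the submitters' processing notes, the authors trimmed reads with Trimmomatic, mapped them to mm9 with Bowtie2 in local mode, removed duplicates with Picard, called peaks per library with MACS2, kept peaks shared by the replicates of a group and merged both groups. They counted Tn5-shifted, extended fragment ends in these intervals, and the deposited values used here are these raw counts. How reads with several equal matches were placed is not given in the sources used here. Columns holding the authors' own comparison were not used.

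Counts were tested with edgeR 4.0.16 (TMM scaling, robust quasi-likelihood fit, group alone, Benjamini-Hochberg over all 39768 intervals) in R 4.3.3, with DESeq2 1.42.0 and limma 3.58.1 (voom) as alternatives. The methods used DESeq2. The test was tried on simulated data: of 100 intervals changed 2-fold 66 were called, and of 100 changed 1.5-fold 16. Near-identical copies were matches by blastn 2.17.0 of at least 95% identity over 50 bp or the whole of a narrower interval. Overlapping intervals were counted once in sums, by the widest.

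The members and lists were chosen with earlier results of these data known. Intervals named in the text are the 2 with the highest mean RPKM of each class, the highest of each locus and the 3 with the smallest p in each direction. Of the list of regulators 6 genes were named regardless of their values, and of the cell cycle list the highest and the lowest. Other intervals were chosen after their values were seen. Alternatives were other scalings, a count minimum, a replicate block, other rules of membership and leaving out each library. Non-overlap without dKO-labelled replicate 1 was added after the data were seen. So were sums by class and over intervals without a copy with each library left out.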

Additional observations from a re-analysis of the deposited data

How the results depend on the processing

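The count of calls after adjustment over all intervals was 0 in every fit run, and the median log2 fold change of the histone gene intervals stayed negative in each. The summed one, recomputed under other scalings, membership rules and with 1 library left out, stayed negative in those. Leaving out 1 library at a time, the median ran from -0.18 to -0.03 and the sum from -0.14 to -0.04. The values nearest 0 were those without dKO-labelled replicate 1. With DESeq2 the unadjusted count was 1 of 40 histone gene intervals, 0 regulator and 0 cell cycle intervals, beside 1.90% of all intervals. With a minimum of 20 counts in each library it was 1 of the 31 left, 2 and 1, beside 3.50%, and with limma voom 1 cell cycle interval, beside 5.03%. Leaving out 1 library gave 0 to 3 histone gene, 0 to 3 regulator and 1 to 3 cell cycle intervals, beside 3.18% to 7.95% of all intervals. Without CTL replicate 2 or dKO-labelled replicate 1 no histone gene interval had an unadjusted p under 0.05 (edgeR), where 4.21% and 7.95% of all intervals did. The cause was not tested.

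Libraries of like replicate number were not positively correlated in their deviations from the group means (-0.10, -0.05 and -0.03). Unlike numbers were not compared, so these values do not settle whether the samples were paired. With the replicate block 2 histone gene intervals had an unadjusted p under 0.05 (edgeR), beside 4.42% of all intervals. None passed after adjustment, and the median was -0.08. Genes without an interval numbered 33 with midpoints within 1 kb, 34 with a 500 bp window and 45 by gene body alone.

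Leaving out 1 library turned the sign at Hist1h1e with Hist1h2be (-0.14 to 0.017), Hist1h2bh with Hist1h3f (-0.20 to 0.12), both intervals of Hist1h4h (-0.33 to 0.11 and -0.078 to 0.31), Hist1h1c (-0.0023 to 0.36) and Slbp (-0.051 to 0.044). It moved other printed values by over 1.5 times without a change of sign: Hist1h2bk to -1.10 (without dKO-labelled replicate 2) and Hist1h2ac with Hist1h2bc to -0.14, -0.05 and -0.04 (CTL 3, CTL 1 and dKO-labelled 1). Hist1h1d moved to 0.14 and 0.52 (CTL 2 and CTL 1) and Hist1h1e to 0.06 and 0.21 (dKO-labelled 1 and 3). Lsm10 moved to -0.15 and -0.05 (dKO-labelled 3 and CTL 1) and Lsm11 to -0.12 (CTL 3). Depth limits the narrow intervals: 9 of the 40 had under 20 counts in a library, and 5 named intervals could not be fitted with that minimum.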
